A study of Mus musculus with 9 samples.

Results

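The 113 features described here had higher scaled counts in every uterine library of mice given conditionally reprogrammed cells (CRCs) than in every library of sham-operated and injured mice. They were selected on these counts. Of the 55228 features in the files, 3243 had a total of 90 or more counts over the 9 libraries. Among these a feature was taken as a member if its lowest CRC value lay above its highest sham and injury value and its CRC mean was at least 2 times the sham mean and at least 2 times the injury mean. These conditions held for 115 features, and 2 of them, which belong to names left out beforehand, are not described. The values of CRC libraries against the other libraries are therefore given as a description with no test. The mice were 8-week-old C57BL females of WT genotype, and whole uterine tissue was taken on day 7, with 3 mice per group and 1 library per mouse. The sham group had a sham operation. In the injury group the lining was damaged by 10 passes of a 27-gauge needle, and 50 µL of PBS was injected. The CRC group had the same injury and 50 µL of a suspension of WT CRCs (1e+06 cells) in place of PBS. CRCs are mouse endometrial epithelial cells grown on irradiated mouse 3T3 feeder cells, and the tissue of the CRC group could hold host cells, transplanted cells or both, which cannot be told apart in these counts.

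The endometrium is the inner lining of the uterus, made of a luminal and glandular epithelium over a stroma, and it lies on the smooth muscle of the myometrium. Many loci of the mouse genome are annotated on both strands, so that an antisense feature shares exon bases with a coding gene and a read there is given to one or the other by its strand. The strand setting of the counting was not given in the sources used here. Reads on more than 1 feature were at most 0.0773% of the records of any library. Gm15441 held 5745 counts over the 9 libraries, while Txnip across from it held 0. Which strand was counted was not tested, so a count on a feature may come from the gene across from it. Actb, Gapdh and Vim, genes counted highly in most tissues, held only 6, 76 and 47 counts over the 9 libraries. A low count on the feature of a gene is therefore not read as low expression. Each value is therefore a count on a named feature and is not taken as the expression of the gene of that name.

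Features held 325384, 317754 and 327883 counts in sham replicates 1, 2 and 3, 290684, 280886 and 282937 in the injury libraries and 288619, 289964 and 290833 in the CRC libraries. These were at most 0.898% of the records of any library, and a single count on a tested feature was worth between 3.33 CPM (counts on the scale of 1e+06 per library after TMM scaling) and 4.01 CPM. The scaling factors moved with the groups, from 0.845 to 0.949 in sham, 0.988 to 1.01 in injury and 1.13 to 1.15 in CRC. With column sums alone, the rule gave 220 features in place of 113, and with library sizes that include reads outside features it gave 202, among them all 113 in both cases. Sham replicates 2 and 3 stood apart in the reads that fell on more than 1 feature, with 28622 and 24851 such reads against 1751 to 6470 in the other libraries. Their unaligned reads made up 3.13% and 2.52%, against 1.36% to 1.81% elsewhere. Without these 2 libraries, which was chosen as an alternative after seeing the data, 126 features met the rule and 97 of them were among the 113. Intervals and limits from counts cover counting error only.

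The tissue label was compared with markers of its cell types. Pgr, the progesterone receptor of uterine epithelium, stroma and muscle, had 67, 67 and 90 counts in the sham libraries, 57, 49 and 46 in those of the injury group and 90, 77 and 76 in those of the CRC group. The 20 epithelial markers together held only 112 counts over the 9 libraries, none reached a total of 90, and Cdh1, Foxa2, Ehf and Klf5 were at 0 in every library. Their sum was 18, 18 and 12 counts in the sham libraries, 6, 10 and 7 in the injury libraries and 19, 15 and 7 in the CRC libraries, with Muc1 as the most counted. An epithelial contribution could therefore not be read from these markers. The 10 smooth muscle markers summed to 125, 158 and 141 counts in the sham libraries, 87, 103 and 95 in the injury libraries and 81, 81 and 108 in the CRC libraries, with Myh11, the smooth muscle myosin heavy chain, as the most counted. Every sham library lay above every injury and CRC library in this sum, and the latter 2 groups overlapped. Gm48529, the feature across from Tagln, measured 75024, 71298 and 70527 CPM in the sham libraries, 58021, 56614 and 57648 in the injury libraries and 31261, 29776 and 29476 in the CRC libraries, with no overlap between the groups, and was lower in CRC than in sham (log2 fold change -1.26, standard error 0.10, edgeR adjusted p = 1.54e-10). Of the 8 tested features of these markers or across from them, 4 were called lower in CRC than in sham. E130310I04Rik across from Mylk and Lmod1 did not follow Gm48529 (log2 fold changes 0.05 and 0.15 against sham, edgeR adjusted p = 0.822 and 0.843). In whole tissue, fewer cells of a type and less RNA per cell cannot be told apart. The part of the muscle, stroma and leukocyte counts in the values of the members was not tested.

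The members made up 1.22%, 0.910% and 1.02% of the counts on tested features in the sham libraries, 1.16%, 1.32% and 1.29% in the injury libraries and between 3.83% and 3.85% in the CRC libraries. Their CPM summed to 12858, 10771 and 12101 in the sham libraries, 11747, 13103 and 12900 in the injury libraries and 33283, 34062 and 33842 in the CRC libraries, so no library of the first 2 groups came near those of the third, as the choice of members fixes. The ratio of the CRC mean to the higher of the other means ran from 2.02 to 9.99 with a median of 2.60. It was under 3 for 76 members, from 3 to under 5 for 26 and 5 or more for 11. Most members were thinly counted, with a median total of 168 counts over the 9 libraries beside 253 for all features tested, and 78 of 113 had fewer than 300. The mean in CRC ran from 62.4 to 5295 CPM with a median of 123 CPM. The lowest CRC library lay at least 2 times above the highest other library for 26 members, and for the median member 1.56 times above it. Within the CRC group the SD was at the median 0.180 of the mean, and the highest value was in replicate 1 for 46 members, in replicate 2 for 41 and in replicate 3 for 26. A count of 0 occurred in some library for 14 members, and for 9 of these it was in sham replicate 2 alone.

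Of the 113 members, 111 have a match in GENCODE M21 (GRCm38), where 62 are annotated as protein coding, 17 as antisense, 13 as processed pseudogenes, 11 as TEC (a class of mostly unspliced transcripts without experimental proof) and 4 as lincRNAs (long non-coding RNAs between genes). Protein-coding features made up 54.9% of the members and 60.1% of all features tested, and processed pseudogenes 11.5% and 4.87%. For 57 members exon bases are shared with a gene on the other strand, for 30 the body of such a gene runs across the member with no shared exon base, and for 24 no gene is annotated across from it. The first of these classes held 50.4% of the members and 60.8% of all features tested, the second 26.5% and 19.1%. Those with exon bases across from a protein-coding gene were 33.6% of the members and 51.9% of all features tested. These shares are descriptions of the list, with no test.

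Among members annotated as antisense, Gm15441 had the most counts. It lies at chr3:96555765-96566801 on the minus strand and shares 606 exon bases with Txnip, which encodes thioredoxin-interacting protein, an inhibitor of thioredoxin and of glucose uptake. Gm15441 measured 1516, 1428 and 1164 CPM in the sham libraries, 1399, 1740.5 and 1649.7 in the injury libraries and 3896, 3729 and 3710.0 in the CRC libraries. The CRC libraries lay close together and above the others by a ratio of 2.37 to the injury mean, the higher of the 2. Txnip itself held 0 counts in all 9 libraries, so that every count of this pair was on the antisense feature. Gm15462, which shares 648 exon bases with Lrrc31, a leucine-rich repeat gene, measured 198, 325 and 139 CPM in the sham libraries, 177, 201 and 199 in the injury libraries and 573, 781 and 726 in the CRC libraries. Sham replicate 2 was the highest of the other 6 libraries and lay below the lowest CRC library. Lrrc31 held 1 count in all. Gm37509, annotated as TEC, lies at chr1:15853331-15856499. It shares 2001 exon bases with Sbspon, a gene for a protein with somatomedin B and thrombospondin domains, and measured 125, 124 and 119.9 CPM in the sham libraries, 222, 98.8 and 118 in the injury libraries and 629.9, 905 and 753 in the CRC libraries. The 3 sham libraries were nearly alike, and injury replicate 1 was the highest of the other 6. Sbspon held 242 counts and its difference between CRC and sham did not pass the threshold (log2 fold change 0.45, standard error 0.36, edgeR adjusted p = 0.398).

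Gm15943 is a 2-exon antisense feature at chr15:58214475-58324053 whose exons share 1446 bases with Klhl38, a kelch-like gene of striated muscle, and 186 bases with Fbxo32, the ubiquitin ligase subunit atrogin-1 of muscle protein breakdown. It measured 52.2, 36.1 and 42.6 CPM in the sham libraries, 11.3, 22.8 and 22.9 in the injury libraries and 373, 241 and 184 in the CRC libraries. The CRC values spread more widely than those of Gm15441 and lay 6.11 times above the sham mean, and every injury library lay below every sham library. Klhl38 held 23 counts over the 9 libraries and Fbxo32 held 7. The split of counts was not one-sided in all antisense members. In examples chosen after their values were seen, 4930426D05Rik held 113 counts and Klhl14 across from it 374, 9330121J05Rik held 895 and Arhgef26 236, and Gm15612 held 259 and Podxl2 111. In 3 others, also chosen after their values were seen, few or no counts lay on the coding gene. Gm45774 shares 432 exon bases with the metallothionein gene Mt2 and measured 62.6, 20.1 and 27.1 CPM for sham, 48.9, 30.4 and 76.4 for injury and 117, 158 and 181 for CRC, while Mt2 held 0 counts. A630019I02Rik shares 2451 exon bases with Cmya5, a gene of striated muscle, and measured 184, 124 and 128 CPM for sham, 165, 159.6 and 187 for injury and 429.9, 449 and 331 for CRC, while Cmya5 held 14 counts. D430036J16Rik shares 852 bases with the serotonin receptor gene Htr1b, which held 6 counts, and its own values were 48.7, 0 and 58.03 CPM for sham, 7.52, 22.8 and 30.5 for injury and 140.0, 144 and 127 for CRC.

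The next lines print 60 bases of coding sequence from each of 3 of these overlaps, read from GENCODE M21 transcripts, to show that the member and the coding gene are the same bases read from opposite strands. Each is given 5′ to 3′ as its own transcript reads, at chr3:96559678-96559737 for the Gm15441 and Txnip pair, chr3:30687523-30687582 for Gm15462 and Lrrc31 and chr15:58323272-58323331 for Gm15943 and Klhl38, on GRCm38. Capitals mark the start codon of Klhl38 and its reverse complement. All 606, 648 and 1446 shared bases were identical between the paired annotations, which is fixed because both are read at the same genome positions.
Gm15441, minus strand: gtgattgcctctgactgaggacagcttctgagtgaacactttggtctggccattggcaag
Txnip, plus strand: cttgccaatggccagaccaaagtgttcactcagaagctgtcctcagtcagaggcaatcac
Gm15462, plus strand: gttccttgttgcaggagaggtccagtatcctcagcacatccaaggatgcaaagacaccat
Lrrc31, minus strand: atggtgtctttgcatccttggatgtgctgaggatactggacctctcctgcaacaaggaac
Gm15943, plus strand: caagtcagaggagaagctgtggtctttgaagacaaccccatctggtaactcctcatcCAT
Klhl38, minus strand: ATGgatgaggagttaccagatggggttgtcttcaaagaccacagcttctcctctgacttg

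**Figure D1:**
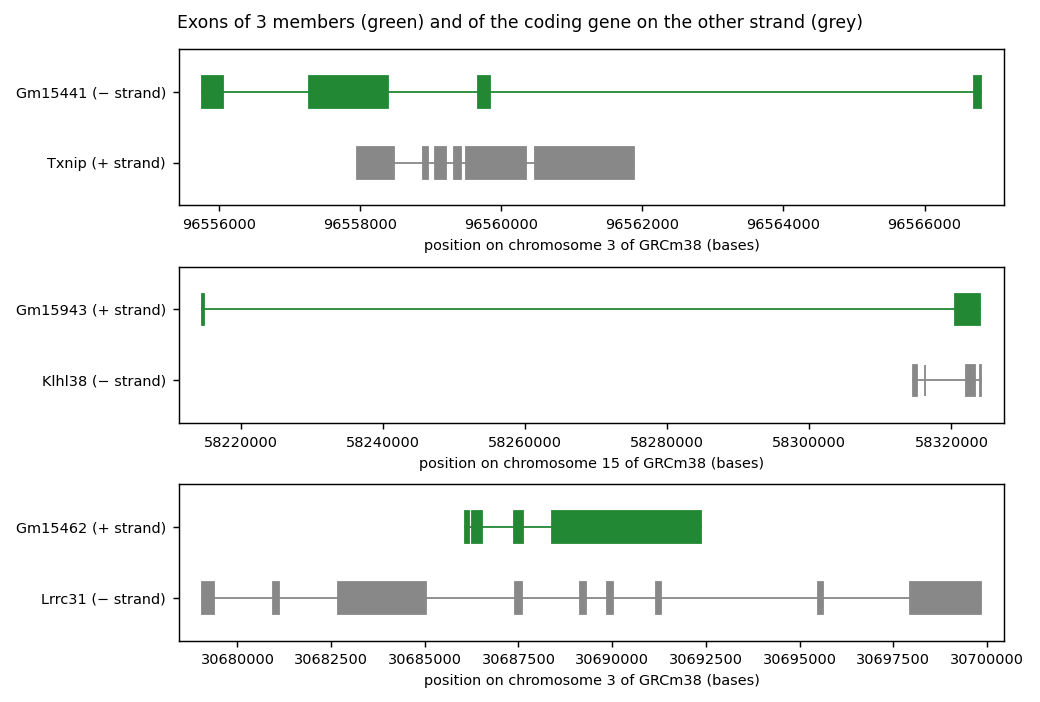
Exons (boxes) and introns (lines) of Gm15441, Gm15943 and Gm15462 in green and of Txnip, Klhl38 and Lrrc31 in grey, drawn to scale against the position in bases on GRCm38. The boxes of each pair overlap in 606, 1446 and 648 bases, on opposite strands.

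Some non-coding members, such as Gm10385, Gm35172, Gm43221 and Gm42944, share no annotated exon base with a coding gene. Gm10385, a lincRNA at chr15:36690103-36694949, had the largest ratio of all members. It measured 10.4, 12.03 and 15.5 CPM in the sham libraries, 22.6, 11.4 and 22.9 in the injury libraries and 187, 168 and 214 in the CRC libraries, a ratio of 9.99 to the injury mean. All 6 libraries without transplanted cells were at or under 6 counts and the CRC libraries held 56, 50 and 64. Gm35172, a lincRNA on chromosome 5 whose exons run across the non-coding Gm16227, measured 31.3, 12.03 and 11.6 CPM in the sham libraries, 18.8, 3.80 and 42.01 in the injury libraries and 157, 90.5 and 161 in the CRC libraries. Injury replicates 2 and 3 were the lowest and the highest of the 6 other libraries. Gm43221 lies across an intron of Fam102b at chr3:109000024-109002094 and was among the best-counted members, with 459, 509 and 530.0 CPM in the sham libraries, 463, 578 and 558 in the injury libraries and 1183, 1274 and 1144 in the CRC libraries. Its groups were each tight and the ratio was 2.25. Gm42944, whose nearest annotated gene lies 11331 bases away, measured 233, 192 and 178 CPM in the sham libraries, 143, 232 and 164 in the injury libraries and 817, 634 and 783 in the CRC libraries. With a ratio of 3.70 it had nothing on the other strand that its reads could belong to in this annotation. Lef1os1, named for its place across from the Wnt pathway transcription factor gene Lef1, could not be placed in GENCODE M21 and was chosen after its values were seen. It measured 136, 104 and 104 CPM in the sham libraries, 102, 156 and 206 in the injury libraries and 603, 519.8 and 606 in the CRC libraries, while Lef1 held 13 counts.

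**Figure D2:**
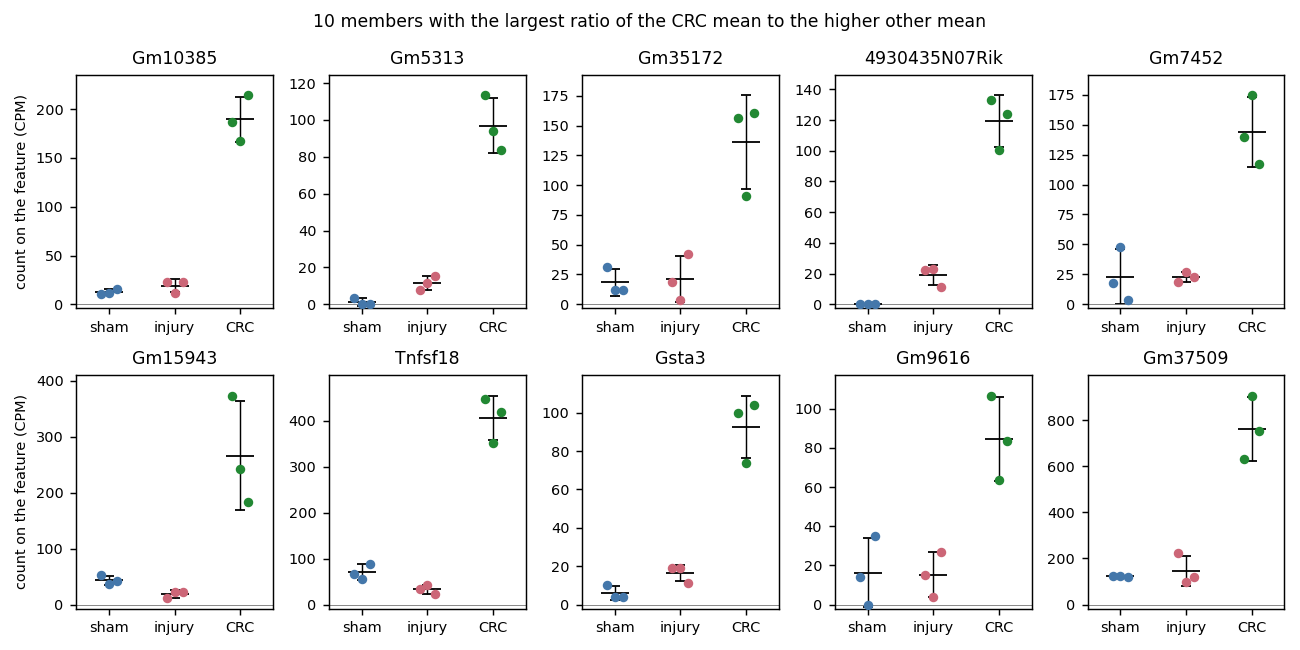
CPM on the feature (vertical axis, from 0) in each library of the sham, injury and CRC groups for the 10 members with the largest ratio. Points are libraries, the long bar is the mean and the error bar is the SD over 3 libraries. Gm10385 lies between 10.4 and 22.9 CPM in the 6 other libraries and between 168 and 214 CPM in CRC.

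Pseudogenes made up 3 of the 10 members with the largest ratio. A processed pseudogene is a copy of a spliced transcript set back into the genome, and reads of the parent gene or of another copy can be counted on it, so these values are uncertain. Gm5313 had 1, 0 and 0 counts in the sham libraries, 2, 3 and 4 in the injury libraries and 34, 28 and 25 in the CRC libraries. The ratio of its CRC mean to the injury mean was 8.51, and the sham count was too low for a ratio. Gm7452, inside the body of Dgki on the other strand, measured 17.4, 48.1 and 3.87 CPM in the sham libraries, 18.8, 26.6 and 22.9 in the injury libraries and 140.0, 174 and 117 in the CRC libraries. Sham replicate 2 was the highest of the other libraries. Gm9616 on chromosome 13 measured 13.9, 0 and 34.8 CPM in the sham libraries, 15.04, 3.80 and 26.7 in the injury libraries and 107, 63.7 and 83.6 in the CRC libraries and was at 0 in sham replicate 2. It lies with the lincRNA Gm40653 and the pseudogene Gm8616, also members, on the plus strand, from 3273235 to 3353988, with no other tested feature between them.

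Of the protein-coding members, Ctsa had the most counts of all 113. It encodes cathepsin A, a lysosomal peptidase that protects beta-galactosidase and neuraminidase, and it lies at chr2:164832873-164841032. It measured 2671, 2222 and 2569 CPM in the sham libraries, 2358, 2592 and 2711 in the injury libraries and 4579, 5419 and 5888 in the CRC libraries. The other 6 libraries fell within a narrow range and the ratio, 2.07, was near the limit of the rule. Ctsa shares 495 exon bases with Pltp, the phospholipid transfer protein gene, which held 10 counts, and 324 with Neurl2, which held 127. Actr8, for an actin-related subunit of the INO80 chromatin remodelling complex, measured 595, 449 and 623 CPM in the sham libraries, 406, 281 and 393 in the injury libraries and 1033, 1553 and 1569 in the CRC libraries. CRC replicate 1 was lower than the other 2, and all injury libraries lay below all sham libraries. Actr8 shares 141 exon bases with Il17rb, which held 317 counts. The neighbour of Actr8, the choline dehydrogenase gene Chdh, follows 2669 bases after it on the same strand and is also a member. Chdh measured 45.2, 12.03 and 34.8 CPM for sham, 30.1, 34.2 and 42.01 for injury and 103, 104 and 167 for CRC. Cdc37l1, for a co-chaperone that binds Hsp90, measured 522, 277 and 398 CPM in the sham libraries, 526, 604 and 542 in the injury libraries and 1219.8, 1284 and 1084 in the CRC libraries, with sham replicate 2 the lowest library.

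Pln encodes phospholamban, the inhibitor of the calcium pump of the muscle sarcoplasmic reticulum. It measured 309.5, 237 and 368 CPM in the sham libraries, 263, 315 and 259.7 in the injury libraries and 573, 761 and 642 in the CRC libraries, a ratio of 2.16 to the sham mean. Sorbs2, for an actin-bound adaptor of muscle and epithelial cells, was chosen after its values were seen and measured 59.1, 100.3 and 101 CPM in the sham libraries, 75.2, 152 and 168 in the injury libraries and 449.9, 443 and 508 in the CRC libraries. Rprd1b, for a protein that binds the tail of RNA polymerase II, measured 309.5, 184 and 398 CPM in the sham libraries, 256, 289 and 305 in the injury libraries and 659.9, 523 and 632 in the CRC libraries. It shares 370 exon bases with Tgm2, the transglutaminase 2 gene, which held 13 counts. Per kilobase of exon, the CRC mean was 1123 CPM for Ctsa, 239 for Pln, 154 for Actr8, 97.9 for Cdc37l1 and 93.1 for Rprd1b, while that of the antisense Gm15441 was 2254.

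**Figure D3:**
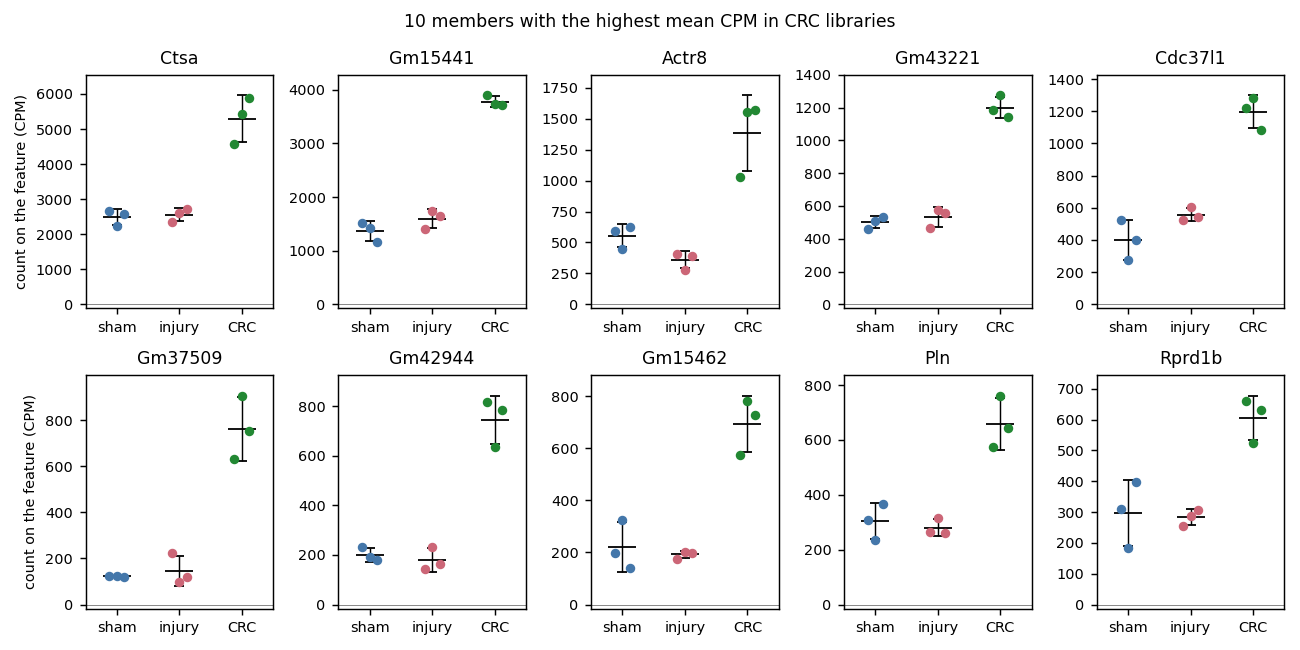
CPM on the feature (vertical axis, from 0) in each library of the sham, injury and CRC groups for the 10 members with the highest CRC mean, not divided by length. Points are libraries, the long bar is the mean and the error bar is the SD over 3 libraries. Ctsa and Gm15441 reach means of 5295 and 3778 CPM in CRC.

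Tnfsf18 and Gsta3 were the 2 protein-coding genes among the 10 members with the largest ratio. Tnfsf18 is the ligand of the T cell receptor GITR and belongs to the tumour necrosis factor family. At chr1:161494655-161505290 it has no annotated gene across from it, and the nearest lies 47259 bases away. It measured 66.1, 56.1 and 88.98 CPM in the sham libraries, 33.8, 41.8 and 22.9 in the injury libraries and 447, 352 and 418 in the CRC libraries. CRC values were 5.76 times the sham mean, and each injury library was below each sham library. Gsta3 encodes a glutathione S-transferase of the alpha class, a family of near-identical paralogs among which a read can be misplaced. It measured 10.4, 4.01 and 3.87 CPM in the sham libraries, 18.8, 19.00 and 11.5 in the injury libraries and 99.98, 73.8 and 104 in the CRC libraries, from 3, 1 and 1 counts in sham to 30, 22 and 31 in CRC. Injury values lay between those of the other groups, with 13 counts in injury and 5 in sham. The difference between these 2 groups did not pass the threshold (log2 fold change 1.33, standard error 0.76, edgeR adjusted p = 0.475).

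Tnfsf18 is a coding member with no annotated overlap, and for this reason the 300 bases around its start are shown from the RefSeq-based promoter table (build GRCm38.p6, chr1:161494407-161494706, plus strand), with the letters TATAAA in capitals.
Tnfsf18 promoter: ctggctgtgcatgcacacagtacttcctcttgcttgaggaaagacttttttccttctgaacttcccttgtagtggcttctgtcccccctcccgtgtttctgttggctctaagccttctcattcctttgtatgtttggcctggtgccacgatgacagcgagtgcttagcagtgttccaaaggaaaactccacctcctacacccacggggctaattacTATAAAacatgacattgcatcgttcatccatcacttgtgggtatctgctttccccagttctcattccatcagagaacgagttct
Promoters of this table were found for 57 members and 1830 tested features. TATAAA on either strand occurred in 12.3% of these members, 8.85% of these tested features and 13.6% of all 32851 promoters. CACGTG occurred in 15.8%, 11.5% and 7.15%, TGACTCA in 1.75%, 5.14% and 5.20%, and GGGCGG in 45.6%, 60.9% and 35.7%. A feature with more than 1 listed start was counted once if any start had the letters. The letters describe these windows and say nothing about a factor.

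Other protein-coding members, chosen after their values were seen, are known for varied roles. Klf11, a Krüppel-like repressor, measured 13.9, 52.1 and 34.8 CPM for sham, 18.8, 38.00 and 19.1 for injury and 123, 101 and 147 for CRC. Meis2 and Tgif1, homeobox factors of the TALE class, had CRC means of 105 and 63.5 CPM at ratios of 2.60 and 2.61. Evpl, for envoplakin of the desmosomes and cornified envelope of stratified epithelia, measured 73.04, 52.1 and 38.7 CPM for sham, 75.2, 34.2 and 34.4 for injury and 197, 168 and 114 for CRC. CRC replicate 3 was the lowest of its group and lay above the other 6 libraries. Cd46, a regulator of complement, measured 243, 140.4 and 182 CPM for sham, 177, 243 and 160.4 for injury and 547, 499.7 and 468 for CRC, and of the genes across from its exons A330023F24Rik, with 1079 shared bases, held 308 counts and the microRNA genes Mir29b-2 and Mir29c held 0. Clcf1, a cytokine of the interleukin-6 family, measured 20.9, 24.1 and 27.1 CPM for sham, 22.6, 30.4 and 22.9 for injury and 96.6, 67.1 and 53.5 for CRC. Scd3, a stearoyl-CoA desaturase with close paralogs, had 2, 1 and 4 counts in the sham libraries, 3, 6 and 4 in the injury libraries and 20, 21 and 29 in the CRC libraries.

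Injury against sham is the comparison that the rule did not order, although it held both groups below CRC. Of the 3243 features tested with edgeR's quasi-likelihood test, 18 passed an adjusted p of 0.05, which is 0.555%, and 12 of them were higher after injury. Of the 113 members, 1 passed it. This feature, 4930435N07Rik, is a TEC feature at chr8:9459092-9461218 within the body of Fam155a on the other strand. No sham library had a count on it, the injury libraries had 6, 6 and 3, and the CRC libraries had 40, 30 and 37. A total of 0 allows up to 3 counts over the sham group, or 3.77 CPM. The observed injury mean was 5.02 times this limit and the observed CRC mean 31.6 times. These ratios leave out the error of the injury and CRC means and are not lower bounds. All 3 injury libraries were above sham (log2 fold change 5.42, standard error 1.25, edgeR adjusted p = 0.0401). Only 15 of its 122 counts lay outside the CRC libraries, so it reached the total of 90 through the group that the rule set apart, and the test between the other 2 groups rests on those 15 counts. The call was lost without any 1 library other than sham replicate 1, with an adjusted p from 0.0617 to 0.154 over those 8 libraries, with the replicate number as a block (0.107), with the 2 groups alone (0.222) and without sham replicates 2 and 3 (0.295), and DESeq2 gave no adjusted p for it.

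Of the 113 members, 71 held fewer than 90 counts in the sham and injury libraries together and were tested only because of their CRC counts, beside 816 of all 3243 features. At an unadjusted p under 0.05, 8 members were higher after injury and 6 lower, and 435 of 3243 features in both directions, but these 2 counts are not comparable for that reason. Among the 42 members with 90 or more counts outside the CRC libraries, 2 were higher and 1 lower, beside 135 and 223 of 2427 features. Gm9570, a processed pseudogene chosen after its values were seen, came next, with 10.4, 4.01 and 3.87 CPM for sham, 41.4, 41.8 and 34.4 for injury and 99.98, 168 and 76.9 for CRC. Sham and injury did not overlap, but it did not pass the threshold (log2 fold change 2.56, standard error 0.66, edgeR adjusted p = 0.0738). With 5 of its 139 counts in sham and 31 in injury, it too reached the total of 90 through the CRC libraries. The median log2 fold change between injury and sham was 0.09 for the members and -0.00 for all features tested. These 2 medians are not comparable either, because 71 members were tested only because of their CRC counts. In 12 members every injury library lay above every sham library, and in 7 every injury library lay below, which was 10.6% and 6.19% of the members. Over all features tested these shares were 8.11% and 8.23%. Among the 42 members with 90 or more counts outside CRC, these numbers were 3 above and 1 below, beside 189 and 224 of 2427 features. Actr8, with 444 counts in sham and 285 in injury, was the one below (log2 fold change -0.63, standard error 0.20, edgeR adjusted p = 0.161) and did not pass the threshold. Without sham replicate 1, 4 members passed it, namely 4930435N07Rik, Cdc37l1, Gm44002 and Gm9570, and the number of all features called was 162 in place of 18.

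The features across from members were not chosen by the rule and were tested between all groups. The 57 members with shared exon bases faced 71 genes, of which 69 were in the files and none was a member. Of these, 15 held 0 counts, 30 fewer than 10 and 41 fewer than 90, and the median total was 14. The other 28 were tested. Between CRC and sham 6 of the 28 passed the threshold, 2 higher and 4 lower, a share close to the 22.6% of all 3243 features. The strongest of them was Gm17122, across from Coro1c, a gene for an actin-bound coronin. Gm17122 measured 602, 1051 and 824 CPM in the sham libraries, 478, 498 and 535 in the injury libraries and 227, 208 and 281 in the CRC libraries, and the CRC libraries were all lower than the sham libraries (log2 fold change -1.79, standard error 0.21, edgeR adjusted p = 2.37e-07). Coro1c itself measured 20.9, 28.1 and 46.4 CPM for sham, 41.4, 49.4 and 19.1 for injury and 113, 117 and 100.4 for CRC, where the higher CRC values were fixed by the choice of members. Gm47644, which shares 1644 bases with Pln, was lower too, at 519 ± 93.5 CPM in the sham group, 478 ± 51.5 in the injury group and 236 ± 4.48 in the CRC group (mean ± SD, n = 3) (log2 fold change -1.13, standard error 0.20, edgeR adjusted p = 0.000106). Gm17690, across from Mtmr11, a myotubularin-related gene, measured 546 ± 16.9 CPM in the sham group, 411 ± 54.6 in the injury group and 252 ± 53.6 in the CRC group (mean ± SD, n = 3) (log2 fold change -1.11, standard error 0.20, edgeR adjusted p = 0.000158). These 3 calls were made under every alternative.

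The fourth lower feature was Gm44987, across from Gga2, a gene for a Golgi adaptor (log2 fold change -1.03, standard error 0.33, edgeR adjusted p = 0.0251), and its call was lost in 7 of 18 alternatives, with library sizes that include reads outside features (0.0923), with no filter (0.0772), without sham replicate 3 (0.205), without CRC replicate 1 (0.0765), without CRC replicate 2 (0.0853), without CRC replicate 3 (0.0705) and without sham replicates 2 and 3 (0.283), with an adjusted p from 0.00820 to 0.283 over all of them. Ak3, a mitochondrial adenylate kinase gene that shares 430 exon bases with Cdc37l1, measured 682, 581 and 511 CPM in the sham libraries, 745, 927 and 798 in the injury libraries and 896, 976 and 756 in the CRC libraries and was higher in CRC than in sham (log2 fold change 0.57, standard error 0.17, edgeR adjusted p = 0.0169). That call was lost in 5 of 18 alternatives, with no filter (0.0725), without sham replicate 3 (0.0940), without CRC replicate 1 (0.0558), without CRC replicate 2 (0.0874) and without sham replicates 2 and 3 (0.278), with an adjusted p from 0.000841 to 0.278 over all of them. Sorbs2os, across from Sorbs2, passed narrowly (log2 fold change 0.90, standard error 0.32, edgeR adjusted p = 0.0447) and lost its call in 13 of 18 alternatives, among them each single library left out except sham replicate 1 (edgeR adjusted p from 0.0502 to 0.171), with 0.000679 to 0.817 over all alternatives. The log2 fold change of Sorbs2os was 1.52 without sham replicate 1 and 0.16 without sham replicates 2 and 3. Against injury, 6 of the 28 passed the threshold, 1 higher and 5 lower, beside 14.5% of all features. Gm17122 and Gm47644 were again lower (log2 fold changes -1.08 and -1.01, edgeR adjusted p = 0.000540 and 0.000668), under every alternative. Gm17690, Mterf2 and Ippk were the other lower ones and Neurl2, across from Ctsa, the higher one, and these 4 calls depended on the processing or on single libraries. That of Gm17690 was lost in 4 of 18 alternatives, with library sizes that include reads outside features (0.0915), without injury replicate 3 (0.105), without CRC replicate 2 (0.0518) and without CRC replicate 3 (0.142), with an adjusted p from 0.00524 to 0.142 over all of them. That of Mterf2 was lost in 4 of 18 alternatives, with library sizes that include reads outside features (0.0516), without injury replicate 1 (0.170), without injury replicate 3 (0.0588) and without CRC replicate 3 (0.161), with an adjusted p from 0.00369 to 0.170 over all of them. That of Ippk was lost in 6 of 18 alternatives, with no filter (0.0630), without injury replicate 1 (0.0584), without injury replicate 2 (0.0643), without injury replicate 3 (0.0686), without CRC replicate 2 (0.0970) and without CRC replicate 3 (0.102), with an adjusted p from 0.00686 to 0.102 over all of them. That of Neurl2 was lost in 7 of 18 alternatives, with no filter (0.177), with the replicate number as a block (0.0504), without injury replicate 1 (0.0725), without injury replicate 2 (0.152), without injury replicate 3 (0.0697), without CRC replicate 1 (0.203) and without CRC replicate 2 (0.0908), with an adjusted p from 0.0102 to 0.203 over all of them. Of the features that lie nearest to a member without shared exon bases, 9 reached a total of 90. Of these, 3 are members themselves (Gm9616, Gm40653 and Gm43942) and were not tested between CRC and the other groups. Of the other 6, none passed the threshold in any of the 3 comparisons with edgeR or DESeq2, and 0 had an unadjusted p under 0.05. Between injury and sham 0 of the 28 passed it with edgeR, 4 had an unadjusted p under 0.05 and 1 passed with DESeq2.

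Members lay on all autosomes and on chromosome X. Chromosome 13 held 12 of them, 10.6% of the members and 4.32% of all features tested, and chromosome 7 held 4, 3.54% and 8.60%. Among these 12, the potassium-chloride cotransporter gene Slc12a7, the pseudogene Gm6263, the centrosomal gene Cep72 and Ccdc127 lie in this order with gaps of 202039, 16366 and 288010 bases, on both strands, and 1 tested feature that is not a member lies in the last gap. Cep72 measured 27.8, 20.1 and 34.8 CPM for sham, 26.3, 38.00 and 15.3 for injury and 99.98, 97.3 and 117 for CRC, and Slc12a7 24.3, 60.2 and 34.8 CPM for sham, 37.6, 26.6 and 34.4 for injury and 133, 93.9 and 110.4 for CRC. In both, sham and injury overlapped. The pairs Mycbp and Gm12903 on chromosome 4 and Actr8 and Chdh on chromosome 14 lie 1867 and 2669 bases apart on the same strand, and Gm43942 lies inside Gm43948 on chromosome 6. Between Actr8 and Chdh 2 other tested features are listed, and between Mycbp and Gm12903 0. Counts of such neighbours may not be independent. The median exon length was 3783 bases for members and 3638 for all features tested, and the median GC content of the longest transcript 47.3% and 48.8%.

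No member was on any of 12 gene lists, nor did its placed exons run across a gene of one. Few of the listed genes could be read at all, and each list is given by the features of its genes and across from them that were tested. Over all features the median log2 fold change was 0.03 between CRC and sham, 0.01 between CRC and injury and -0.00 between injury and sham. With library sizes that include reads outside features these first 2 medians were 0.30 and 0.20, so the list medians, given with TMM factors, are to be read relative to the scaling. Of all 3243 features, 311 were called higher and 422 lower in CRC than in sham, and 199 higher and 271 lower than in injury, and the counts below stand beside these. With library sizes that include reads outside features most calls were higher instead, 603 of 867 against sham and 338 of 521 against injury. Of 8 smooth muscle features, 4 were lower in CRC than in sham and 2 lower than in injury, with medians of -0.98 and -0.37. They included Myh11, at 288 ± 45.8 CPM in the sham group, 154 ± 18.95 in the injury group and 123 ± 62.8 in the CRC group (mean ± SD, n = 3), whose call against sham was lost in 1 of 18 alternatives, without sham replicates 2 and 3 (0.0697), with an adjusted p from 0.000974 to 0.0697 over all of them, and Gm11946 across from the muscle gene Smtn (log2 fold change -0.86, standard error 0.16, edgeR adjusted p = 0.000276). Of the other 2, Gm48529 is given above and Pcsk7, also across from Tagln, had a call against sham that was lost in 6 of 18 alternatives, with library sizes that include reads outside features (0.0583), with no filter (0.0857), without sham replicate 3 (0.0573), without CRC replicate 2 (0.102), without CRC replicate 3 (0.0596) and without sham replicates 2 and 3 (0.234), with an adjusted p from 0.0118 to 0.234 over all of them. Its call against injury was lost in 1 of 18 alternatives, without CRC replicate 2 (0.0636), with an adjusted p from 0.00257 to 0.0636 over all of them. The single leukocyte feature, Csf1r, the receptor of macrophage growth factor, was lower in CRC than in sham (log2 fold change -1.02, standard error 0.26, edgeR adjusted p = 0.00473), a call lost in 1 of 18 alternatives, without sham replicates 2 and 3 (0.0874), with an adjusted p from 0.00242 to 0.0874 over all of them, and that of endothelium, Egfl7, did not pass the threshold. The single epithelial one, Gm26642 across from Elf3, was lower in CRC than in sham (log2 fold change -0.93, standard error 0.28, edgeR adjusted p = 0.0147), a call lost in 4 of 18 alternatives, with library sizes that include reads outside features (0.0821), without sham replicate 2 (0.0815), without CRC replicate 3 (0.0918) and without sham replicates 2 and 3 (0.219), with an adjusted p from 0.00534 to 0.219 over all of them.

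In the stroma list 1 of 6 features was higher and 1 lower in CRC against sham, with a median of -0.23. Nr2f2, for an orphan nuclear receptor of the stroma that is also on the hedgehog list, was the higher one at 152 ± 18.3 CPM in the sham group, 169.5 ± 19.9 in the injury group and 272 ± 29.2 in the CRC group (mean ± SD, n = 3) (log2 fold change 0.84, standard error 0.25, edgeR adjusted p = 0.0152), a call lost in 2 of 18 alternatives, with no filter (0.0580) and without CRC replicate 2 (0.0735), with an adjusted p from 0.00161 to 0.0735 over all of them, and Gm16897 across from Cd34 the lower one. Against injury these counts were 1 and 1, with a median of 0.15. The higher one was B130024G19Rik across from Nr2f2, also on the hedgehog list, whose call was lost in 6 of 18 alternatives, with no filter (0.234), without injury replicate 1 (0.251), without injury replicate 3 (0.0819), without CRC replicate 1 (0.0591), without CRC replicate 2 (0.126) and without CRC replicate 3 (0.147), with an adjusted p from 0.00577 to 0.251 over all of them. The lower one was again Gm16897, a call lost in 1 of 18 alternatives, without injury replicate 1 (0.0515), with an adjusted p from 0.000556 to 0.0515 over all of them. The hedgehog list had 1 of 3 features higher than in sham and 1 higher than in injury, with medians of 0.42 and 0.60. The Wnt list had 1 of 4 lower than in sham and 1 higher than in injury, with medians of -0.18 and 0.22. The lower one, Ulk4 across from Ctnnb1 (log2 fold change -0.57, standard error 0.21, edgeR adjusted p = 0.0464), had a call lost in 12 of 18 alternatives, with DESeq2 (0.0595), with upper quartile factors (0.0623), with library sizes that include reads outside features (0.313), with no filter (0.0857), with the replicate number as a block (0.0772), without sham replicate 2 (0.143), without sham replicate 3 (0.130), without injury replicate 3 (0.0681), without CRC replicate 1 (0.117), without CRC replicate 2 (0.137), without CRC replicate 3 (0.130) and without sham replicates 2 and 3 (0.723), with an adjusted p from 0.00429 to 0.723 over all of them, and its log2 fold change was as small as -0.16 among them. The higher one was Gm48159 across from Rspo3, a gene for a secreted Wnt agonist, at 106 ± 59.5 CPM in the sham group, 46.8 ± 13.7 in the injury group and 179 ± 45.5 in the CRC group (mean ± SD, n = 3) (log2 fold change 1.93, standard error 0.39, edgeR adjusted p = 0.000821).

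Cell cycle features were lower in 2 of 5 cases against sham and in 3 against injury, with medians of -0.49 and -0.999, and none was higher. The calls were on Exosc9, LTO1 and, against injury, Ap4m1, which lie across from listed genes. The own features of Ccna2 (log2 fold changes -0.49 and -1.05, edgeR adjusted p = 0.395 and 0.0600) and Ccnd1 (0.07 and -0.18, 0.846 and 0.658) did not pass the threshold. The call of Ap4m1 was lost in 5 of 18 alternatives, with library sizes that include reads outside features (0.136), without injury replicate 1 (0.106), without injury replicate 3 (0.107), without CRC replicate 1 (0.141) and without CRC replicate 2 (0.0703), with an adjusted p from 0.00366 to 0.141 over all of them. Exosc9, across from Ccna2, had the larger difference, with 104, 297 and 162 CPM in the sham libraries, 229, 110.2 and 191 in the injury libraries and 16.7, 36.9 and 6.69 in the CRC libraries (log2 fold change -3.19, standard error 0.48, edgeR adjusted p = 1.06e-05). The log2 fold change of Exosc9 was -3.94 without CRC replicate 2 and -2.35 without sham replicates 2 and 3. Matrix features other than collagens were higher in 1 and lower in 1 of 5 cases against sham, and lower in 1 against injury, with medians of -0.66 and 0.19. The higher one was Timp3, an inhibitor of matrix metalloproteinases (log2 fold change 1.18, standard error 0.37, edgeR adjusted p = 0.0226), whose call was lost in 5 of 18 alternatives, without sham replicate 2 (0.0838), without sham replicate 3 (0.0801), without CRC replicate 1 (0.124), without CRC replicate 3 (0.0685) and without sham replicates 2 and 3 (0.549), with an adjusted p from 0.000733 to 0.549 over all of them, and without sham replicates 2 and 3 its log2 fold change was 0.42. Oestrogen and progesterone features were lower in 2 of 3 cases against each of the other groups, with medians of -1.06 and -0.87, and Pgr did not pass the threshold in any comparison. Of these calls, that of Gm48140 across from Greb1 against injury was lost in 4 of 18 alternatives, with library sizes that include reads outside features (0.0593), without injury replicate 1 (0.0519), without injury replicate 3 (0.0837) and without CRC replicate 2 (0.0674), with an adjusted p from 0.00342 to 0.0837 over all of them. Immediate early features were lower in 2 of 4 cases against sham and in none against injury, with medians of -0.37 and 0.03. The call of Fosl2 was lost in 8 of 18 alternatives, with library sizes that include reads outside features (0.0859), with no filter (0.0602), without sham replicate 2 (0.102), without sham replicate 3 (0.0892), without CRC replicate 1 (0.0558), without CRC replicate 2 (0.128), without CRC replicate 3 (0.0620) and without sham replicates 2 and 3 (0.920), with an adjusted p from 0.00135 to 0.920 over all of them, and its log2 fold change was -1.11, and -0.10 at the smallest. That of Gm11175 across from Jund was lost in 4 of 18 alternatives, with library sizes that include reads outside features (0.249), without sham replicate 1 (0.0826), without CRC replicate 2 (0.0772) and without CRC replicate 3 (0.115), with an adjusted p from 7.52e-05 to 0.249 over all of them. RNA splicing features were lower in 3 of 10 cases against sham and 1 against injury, with medians of -0.03 and -0.21. The call of Rbm25 against sham was lost in 2 of 18 alternatives, without sham replicate 2 (0.0535) and without sham replicates 2 and 3 (0.585), with an adjusted p from 4.92e-05 to 0.585 over all of them, and that of Hnrnpu lost in 1 of 18 alternatives, with library sizes that include reads outside features (0.0578), with an adjusted p from 0.000141 to 0.0578 over all of them. Between injury and sham 1 list feature passed the threshold, Syn3 across from Timp3, which was lower (log2 fold change -0.55, standard error 0.12, edgeR adjusted p = 0.0200), and its call was lost in 9 of 18 alternatives, with library sizes that include reads outside features (0.0640), with no filter (0.147), with the 2 groups alone (0.0707), with the replicate number as a block (0.0726), without sham replicate 3 (0.123), without injury replicate 1 (0.122), without injury replicate 2 (0.0838), without injury replicate 3 (0.220) and without CRC replicate 3 (0.0772), with an adjusted p from 0.000631 to 0.220 over all of them. The medians of the lists between injury and sham ran from -0.55 for the oestrogen and progesterone list to 0.15 for the cell cycle list.

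The limit of 2 times divides a continuous series of ratios. Just inside it lay Gm44002, a TEC feature across from the histone deacetylase gene Hdac11, with a ratio of 2.02, the magnesium transporter gene Mrs2 with 2.03 and Rprd1b with 2.03. Gm44002 measured 108, 48.1 and 65.8 CPM in the sham libraries, 165, 110.2 and 115 in the injury libraries and 269.9, 268 and 251 in the CRC libraries, and Mrs2 86.95, 112 and 108 CPM for sham, 75.2, 110.2 and 49.6 for injury and 187, 208 and 231 for CRC. Just outside it, among features with every CRC library above every other, lay Brd7, a bromodomain gene, with 1.98, the prostaglandin reductase gene Ptgr2 with 1.97 and Gm37648 with 1.97. Gm37648 measured 97.4, 92.2 and 88.98 CPM in the sham libraries, 105, 83.6 and 76.4 in the injury libraries and 190.0, 171 and 187 in the CRC libraries, and Brd7 10.4, 48.1 and 19.3 CPM for sham, 30.1, 38.00 and 38.2 for injury and 66.7, 60.4 and 83.6 for CRC. Values on both sides of the limit were alike. In all, 342 of the 3243 features, 10.5%, had every CRC library above every other library.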

How the data were processed

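Values are read counts per feature as the authors deposited them. The submitters' processing notes name HISAT2 2.1.0 and StringTie 2.1.1, the names and special entries of the count files point to HTSeq, and its version and strand setting were not given in the sources used here. The 5 special entries, such as reads outside features, held over 99% of the records of each library and were left out of the counts. Feature names were matched to GENCODE M21 on GRCm38, the version available here. The study names another GENCODE version, so classes, overlaps and shared bases may differ from the annotation counted against. Features with a total of 90 or more were scaled with TMM factors and compared in edgeR by its quasi-likelihood test, with p adjusted after Benjamini and Hochberg and called under 0.05 (R 4.3.3, edgeR 4.0.16, limma 3.58.1, DESeq2 1.42.0, Python 3.11.15, matplotlib 3.10.9). The standard error given with a log2 fold change is its absolute value divided by the square root of the F statistic of that test. It is not a separate estimate of the spread. Members named by rule were the 10 with the largest ratio, the 10 with the highest CRC mean, the 5 highest protein-coding ones, those called between injury and sham, those on or across from a listed gene (none), and the 3 nearest each side of the 2 times limit. A place across from a listed gene could be checked only for the 111 members matched to GENCODE M21, which leaves out Lef1os1. The 12 lists cover 5 cell types, cell cycle, matrix, Wnt, hedgehog, steroid response, immediate early genes and splicing. Members and lists were chosen with earlier results of these data known. The analysis was tested on simulated data first. The result of 1 member is not reported here.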

Additional observations from a re-analysis of the deposited data

How the results depend on the processing

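The number of members, 113, was 112 with DESeq2 size factors and 115 with upper quartile factors. It was 220 with column sums alone, 202 with library sizes that include reads outside features, 184 and 52 with totals of 45 or 180 or more, 239 and 37 with limits of 1.5 and 3 times, and 113 to 132 without single libraries. Of the 52, 50 were among the 113. Of the 113, 106 met the rule with a total of 45 or more, and 101 to 109 without single libraries. Without sham replicates 2 and 3, an added alternative chosen after seeing the data, it was 126.

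Between injury and sham 18 features were called, 6 with only the 2 groups, 5 with the replicate number as a block, 8 without sham replicates 2 and 3 and 3 to 162 without single libraries. The members called, 1, became 0 with DESeq2, with only the 2 groups, with the block and without sham replicates 2 and 3, and 0 to 4 without single libraries. Same-number libraries correlated at -0.10 to 0.08 after group means were removed. With 3 libraries per group and low counts, these values cannot decide whether the numbers pair the samples. The same-number pairs of injury and CRC were at 0.06, 0.08 and 0.04, and those of sham and CRC at -0.10, -0.05 and 0.00. Between CRC and sham 733 were called, 311 of them higher, against 867 with 603 higher when reads outside features set the library sizes, and 668 with the block. Between CRC and injury 470 were called, 199 higher, against 521 with 338 higher for that scaling, 696 with 339 higher for only the 2 groups, 406 with the block and 303 to 605 without single libraries. The cause was not tested. Of 46 single calls, 21 were made under every alternative run, 25 were lost under at least 1 and 0 reversed. DESeq2 gave no adjusted p for 4930435N07Rik.

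Features held under 1% of the records in each library, and many members had under 10 counts in a sham or injury library. With 3 libraries per group, differences of thinly counted features can be missed, and counts of 0 do not show that a transcript was absent. Reads of features on opposite strands and of near-identical copies could not be told apart.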
